A study of Mus musculus with 15 samples.

Results

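The arrays described here are the 6 that carried DNA of unaffected liver, out of 15 arrays in the series. They were chosen by their label alone, and they hold 3 livers, each hybridised once in each dye orientation against DNA of normal liver on the same array. The other 9 arrays carried DNA of 5 hepatocellular carcinomas (HCC) from the same 3 mice and enter only where they show how the livers differ. Array comparative genomic hybridisation (array CGH) measures the relative amount of DNA at each probe, so that a gain or loss carried by many cells moves the log2 ratio of tissue over reference away from 0.

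Liver 1 came from a female of 16.4 months with the genotype Mad2(f/f) p53(f/+). Liver 2 came from a male of 13.8 months and liver 3 from a male of 13.9 months, both Mad2(f/f) p53(f/f). All 3 mice carried AlbuminCre on a mixed C57BL/6.129 background, and all were homozygous for the floxed Mad2 allele (Mad2l1), so that no liver without the floxed alleles stands beside them as a control. The Albumin promoter drives Cre in hepatocytes, and the vessel and immune cells of a liver sample keep their alleles. The reference was normal liver of C57BL/6.129 mice of the opposite sex, wild type according to the methods, which gave a male reference for liver 1 and a female reference for livers 2 and 3. Genotype, age, sex, sex of the reference, scan day and scan protocol all set liver 1 apart from livers 2 and 3 and cannot be told apart, and each liver lay on a slide of its own. Genomic DNA holds no expression markers, so the hepatocyte identity of the samples could not be checked against marker genes.

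Mad2l1 encodes a protein of the spindle assembly checkpoint, which holds a dividing cell in metaphase until its chromosomes are attached to the spindle. Without it, daughter cells can receive too many or too few chromosomes. Trp53 encodes p53, a transcription factor that arrests or kills damaged cells and limits the growth of cells with abnormal chromosome numbers. Hepatocytes divide rarely in the adult and many are normally polyploid, and a change in the number of whole chromosome sets leaves the ratio between chromosomes, and so a centred array CGH profile, unchanged.

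The sequences of 5 probes to which results below refer are given here, as deposited, in lower case. The 1st and 2nd of them lie in the genes that were engineered. The Itgb4 probe had the smallest p of all probes against the reference. The chr12 probe and the probe named D12619 lay on opposite sides of 0 in liver 1 and in livers 2 and 3. The files name neither the genome build nor the strand of a probe, and the positions printed are those of the files. No letters are in capitals, since no part of a probe was singled out.
Mad2l1 probe, chr6:66489958-66490017: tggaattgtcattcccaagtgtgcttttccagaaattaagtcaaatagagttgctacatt
Trp53 probe, chr11:69397121-69397180: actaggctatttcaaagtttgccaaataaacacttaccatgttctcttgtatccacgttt
Itgb4 probe, chr11:115862667-115862726: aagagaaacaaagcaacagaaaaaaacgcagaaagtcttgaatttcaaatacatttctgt
Unnamed probe, chr12:105178127-105178186: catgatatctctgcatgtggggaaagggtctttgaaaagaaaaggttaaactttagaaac
D12619 probe, chr19:17890539-17890598: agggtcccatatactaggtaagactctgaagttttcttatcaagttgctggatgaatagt

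To ask whether whole chromosomes were gained or lost in the bulk of the unaffected tissue, the level of each autosome was taken as the mean log2 ratio of its probes, with the median over all 40726 autosomal probes of an array set to 0. No autosome of any liver reached 0.3 from 0. The level furthest from 0 was that of Chr4 in liver 1, at -0.18, followed by Chr19 in the same liver at -0.13. These were the only levels past 0.1. All other levels of the 3 livers lay between -0.096 and 0.082. In liver 3 no autosome was more than 0.034 from 0.

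The livers were not equally flat. The SD of the 19 autosome levels was 0.0596 in liver 1, 0.0421 in liver 2 and 0.0146 in liver 3. Levels past 0.05 were found on 6 autosomes in liver 1, on 5 in liver 2 and on 0 in liver 3. As a scale for these values, the X chromosome differed from the sex-mismatched reference by 0.88, -0.87 and -0.92 in livers 1, 2 and 3. Scaled by those values, and with all cells taken as diploid, 1 extra copy of an autosome in every cell would give 0.515, 0.506 and 0.538. In 10% of cells it would give 0.062, 0.0609 and 0.0648. The Chr4 level of liver 1 was further from 0 than the -0.0652 of a loss of 1 copy in 10% of its cells on that scale, and that of liver 2 further than the corresponding -0.064, while that of liver 3 was not.

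**Figure D1:**
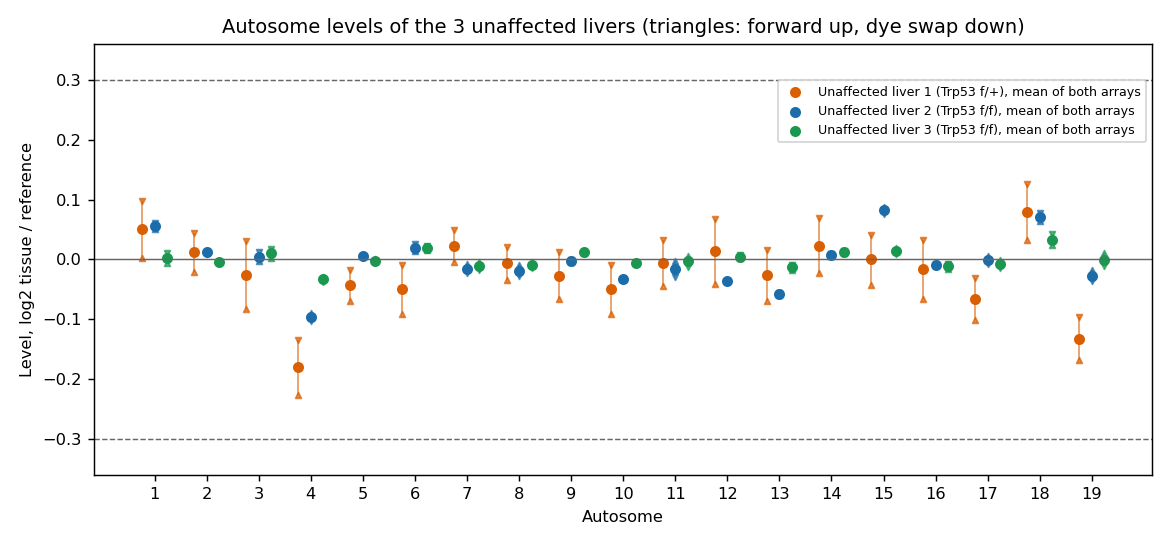
Level of each of the 19 autosomes (mean log2 tissue over reference of its probes) in unaffected liver 1 (Trp53 f/+), 2 and 3 (Trp53 f/f). Circles are the mean of both arrays, triangles the forward (up) and dye-swap (down) array, and dashed lines mark 0.3 and -0.3. Every circle lies between -0.18 and 0.082, and the dye orientations of liver 1 are offset from each other on every autosome.

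Against the reference, 0 of 19 autosomes passed limma at an adjusted p of 0.05 (0.0% called), and 2 had an unadjusted p under 0.05. This test sets 3 livers against 0 and leaves out the spread of the reference itself. Chr18 was at 0.079, 0.071 and 0.033 in livers 1, 2 and 3, a mean of 0.061 (limma adjusted p = 0.12). It was above 0 in all 3. Chr4 was at -0.18, -0.096 and -0.034, a mean of -0.10 ± 0.073 (SD, n = 3; limma adjusted p = 0.145). It was below 0 in all 3, and its order over the livers was the order of the spreads given above. Normexp background correction, the dye-swap arrays alone and the restriction to probes well above background each called Chr4 and Chr18. On 11 of 19 autosomes the 3 livers had 1 sign, and an exact sign-flip test per autosome cannot go below p = 0.25 with 3 livers.

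The remaining autosomes showed less in common. Chr1 was at 0.051, 0.055 and 0.003, and Chr13 at -0.026, -0.058 and -0.013. Chr15 stood out in liver 2 only, at 0.082 against -0.0002 in liver 1 and 0.014 in liver 3. Across the 19 autosomes, levels of livers 2 and 3 correlated with r = 0.78, livers 1 and 2 with 0.66, and livers 1 and 3 with 0.57. Autosomes are not independent replicates, and livers 2 and 3 share the sex of the reference and the scan day.

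The dye orientations bear on how small a level can be read. Forward minus dye-swap levels differed by a mean of -0.0815 in liver 1, 0.0035 in liver 2 and 0.0013 in liver 3. Apart from this offset the SD of the difference divided by 2 was 0.0086, 0.006 and 0.0059. The orientations had the same sign on 8 of 19 autosomes in liver 1, on 17 in liver 2 and on 15 in liver 3. Correlations of the orientations over 19 autosomes were 0.96, 0.96 and 0.76. Over single autosomal probes they were -0.073, 0.24 and 0.28, so the orientations of liver 1 did not agree probe by probe. Averaging the orientations removes the offset of liver 1 from the levels given above only as far as it is equal and opposite in them. By the median of its probes Chr19 of liver 1 was at -0.102, against -0.132 by the mean.

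The spread of autosome levels separated the livers from the tumours of the same mice. The SD of the 19 levels was 0.213 to 0.351 in the 5 HCC, and the lowest HCC was 3.57 times the highest liver. Livers averaged 0.0388 ± 0.0227 (SD, n = 3) and HCC 0.277 ± 0.0552 (SD, n = 5), a difference of 0.238 (exact permutation test over 56 splits, two-sided, p = 0.0357, the smallest these splits can give). These splits treat the tissues of a mouse as independent, and with the mouse as a block the difference was 0.227 and did not pass (exact sign-flip test, p = 0.25, the smallest that 3 mice can give). It was 0.198, 0.171 and 0.313 within the mice of livers 1, 2 and 3, 0.254 and 0.214 within scan days 1 and 2, and 0.171, 0.336 and 0.245 within slides 1, 2 and 3, while slide 4 held HCC only. On Chr7, Chr15, Chr16 and Chr18 all 3 livers lay outside the range of the 5 HCC, and on Chr4 livers 2 and 3 did. Chr15 was at 0.326 to 0.719 in HCC and at most 0.082 in liver, and Chr7 was at -0.314 to -0.0778 in HCC and at least -0.0156 in liver.

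**Figure D2:**
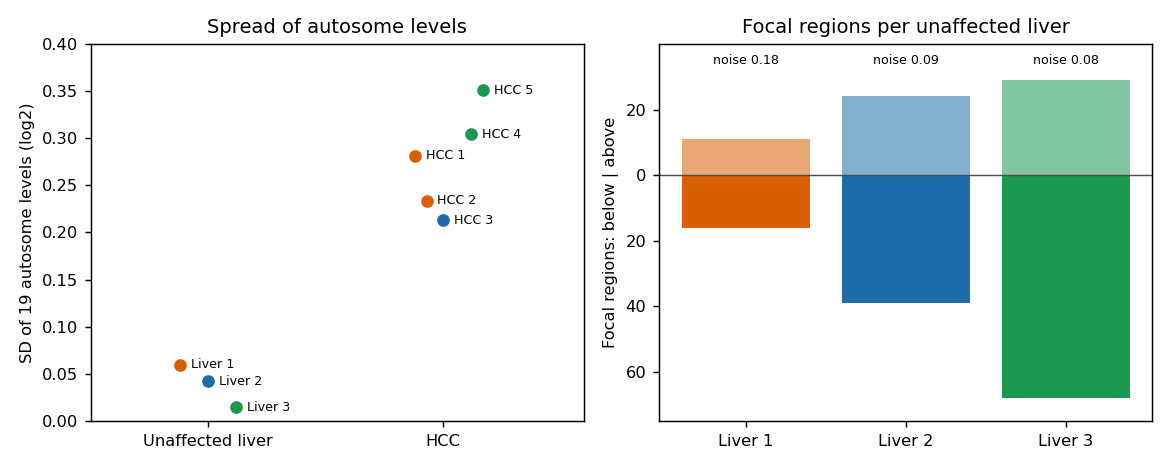
Left: SD of the 19 autosome levels (log2) in 3 unaffected livers and 5 HCC, coloured by mouse; the livers lie between 0.0146 and 0.0596 and the HCC between 0.213 and 0.351. Right: number of focal regions above (light) and below (dark) the chromosome median in each liver, 27, 63 and 97 in all, with the probe noise of each liver in log2 units.

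Below the scale of chromosomes, each autosome was divided into segments of like value. A focal region was a segment of at least 5 probes and fewer than 0.5 of its autosome's probes whose mean lay at least 0.3 from the median of that autosome. The shift chose these regions, so it is given as a description with no test. Liver 1 held 27 focal regions, 11 above and 16 below the chromosome. Liver 2 held 63, 24 above and 39 below, and liver 3 held 97, 29 above and 68 below. The regions took up 0.548%, 0.886% and 1.34% of autosomal probes, and their median length was 235, 205 and 185 kb. Regions just inside the threshold had shifts of 0.352, 0.308 and 0.303, and segments just outside it 0.286, 0.29988 and 0.295.

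The count ran opposite to the noise of the profile. Probe noise was 0.175 in liver 1, 0.0909 in liver 2 and 0.0835 in liver 3, and with the noise of livers 2 and 3 raised to that of liver 1 they kept a mean of 18.15 and 30.25 regions over 20 draws. The order of the counts is therefore not a comparison of the mice. In livers 1 and 2 no segment longer than 5 Mb lay more than 0.091 and 0.04 from its chromosome, and in liver 3 the furthest was a sparse stretch of 5 probes around AK034276 at chr2:96149532-101294841, at -0.42.

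Most focal regions rested on few probes. At least 1 probe past 1 was found in 23 of 27, 48 of 63 and 76 of 97 regions. Without the probe furthest out, the mean of 10, 49 and 77 of them came to less than 0.3. The median over the probes of a region was past 0.3 in 12, 16 and 21. In 10 of 16, 8 of 39 and 12 of 68 regions below the chromosome, at least 1 probe was not well above background in the tissue channel, so that its value is only a bound.

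In 12 cases, over 9 places in the genome, every probe of the region lay at least 0.2 from the chromosome median in the region's direction. This criterion was chosen after the values were seen. The widest of them was on Chr19, at chr19:17158976-17890598, with 15 probes in liver 3. It ran over AK165582, Gcnt1, AK041805, Rfk, D17583 and D12619, and is called the Gcnt1 to Rfk region here. Its last probe was the D12619 probe printed above. Gcnt1 encodes a glycosyltransferase that branches O-linked glycans, and Rfk riboflavin kinase, which makes flavin mononucleotide. The region was at 0.55 in liver 3 (0.58 forward, 0.53 dye swap) and 0.51 in liver 2 (0.53 and 0.51). Liver 1 lay on the other side, at -0.98 (-0.94 and -1.02). In livers 2 and 3 the values stood near the 0.506 and 0.538 that 1 extra copy in diploid cells gives on the X scale. The f/+ liver against a male reference and the f/f livers against a female reference thus took opposite signs, and whether the tissue or the reference DNA differed cannot be told apart. Over the 17 probes called in liver 1, from chr19:16944661 on, the means were -0.94, 0.44 and 0.48.

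The region from Btbd9 through Glo1 and Dnahc8 to Glp1r, at chr17:30622143-31060205, held 10 probes. Glo1 encodes glyoxalase 1, which detoxifies methylglyoxal, and Glp1r the receptor of the incretin hormone GLP-1. It was at 0.56 in liver 1, 0.90 in liver 3 and -0.03 in liver 2. All 10 probes were at least 0.2 above the chromosome in livers 1 and 3, and 0 were in liver 2. The same split was seen in the tumours, with 0.56 and 0.71 in the HCC of liver 1's mouse, 0.84 and 0.81 in those of liver 3's mouse, and -0.02 in HCC 3. Glo1 is a place where copy number is known to differ between laboratory mouse strains.

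**Figure D3:**
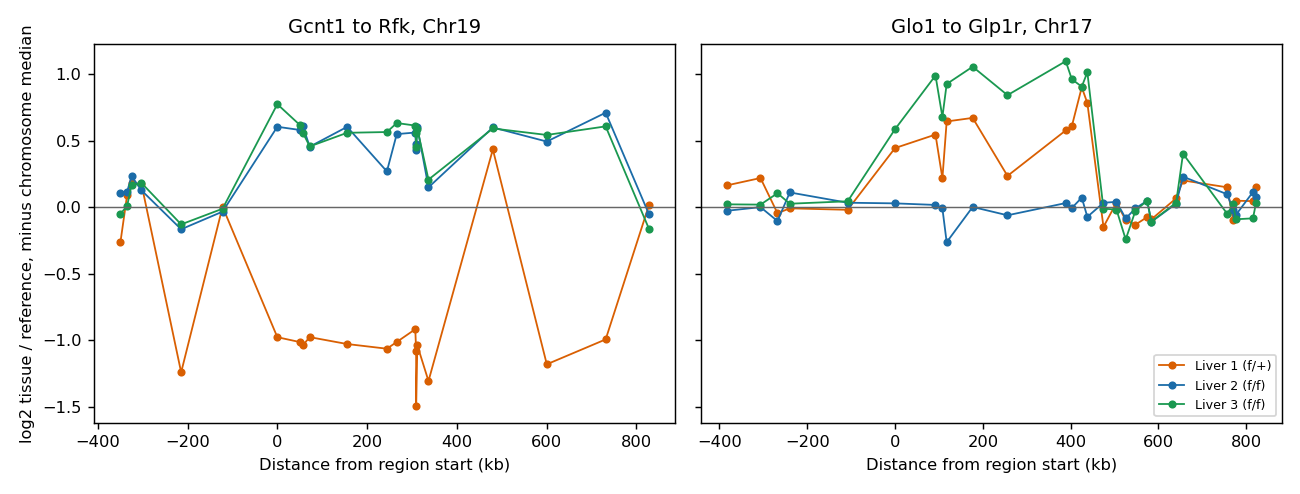
Probe values (log2 tissue over reference minus the chromosome median) against distance in kb from the start of the region, in the 3 unaffected livers. In the Gcnt1 to Rfk region liver 1 averages -0.98 and livers 2 and 3 0.51 and 0.55, and in the Glo1 to Glp1r region livers 1 and 3 average 0.56 and 0.90 and liver 2 -0.03.

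3 of the 9 places were past 0.3 in 1 liver only. At chr4:111745389-112130148, 9 probes were at 0.93 in liver 1, against 0.04 in liver 2 and -0.05 in liver 3. The array names this stretch only by AK162813, 9530098N22Rik, A430090E18Rik and A030013N09Rik, and what these encode was not looked up. At chr14:69877295-70082968, 9 probes over Slc25a37 (mitoferrin, which carries iron into mitochondria), Entpd4 and Loxl2 (a lysyl oxidase of the extracellular matrix) were at 0.52 in liver 2, against -0.05 and 0.01. At chr5:134294164-134792139, 13 probes over Gtf2ird2, Ncf1 (a subunit of the phagocyte NADPH oxidase) and Gtf2i (a transcription factor) were at 0.54 in liver 3, against -0.01 and -0.04. At chr9:46687599-46821302, 5 probes were at 0.63 in liver 1 and -0.36 in liver 3, with 0.04 in liver 2, so that 2 livers moved in opposite directions there.

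Other places were past 0.3 in 2 livers in 1 direction. At chr7:35429866-35837938, 9 probes over Kctd15, Chst8, Pepd (prolidase) and Cebpg (a leucine zipper factor of the C/EBP family) were at -0.54 in liver 2 and -0.51 in liver 3, and 0.04 in liver 1. The region over Colec12, Thoc1 and Usp14 on Chr18 was at 0.46 in liver 1, 0.40 in liver 3 and 0.01 in liver 2.

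Joined over the livers, the focal regions made up 137 places. Of these, 95 were found in 1 liver, 38 in 2 and 4 in all 3. The 23 places found in both livers 2 and 3 and not in liver 1 all had 1 direction. Livers 1 and 3 without liver 2 shared 11 places, 8 of them in 1 direction, and livers 1 and 2 without liver 3 shared 4, of which 1 was in 1 direction. As a share of each liver's regions, 15 of 27 regions of liver 1 overlapped 1 of liver 3 and 17 of 97 of liver 3 overlapped 1 of liver 1. For livers 2 and 3 the shares were 28 of 63 and 29 of 97.

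No place found in all 3 livers had 1 direction in all 3. The Chr19 place was described above. At chr2:129044972-129810936, 21 probes over Il1a and Il1b (the interleukin-1 cytokines) and Sirpa (an inhibitory receptor that binds CD47) averaged 0.22, -0.31 and -0.35 in livers 1, 2 and 3. The median over these probes was -0.02, -0.04 and -0.01, and the Sirpa probe at chr2:129434793-129434852 was furthest out. Without it the means came to 0.07, -0.16 and -0.17, and 1 more probe was past 1 in each liver. The Sirpa probe was at least 9.27-fold higher than the reference in liver 1 and at least 9.78-fold and 17.6-fold lower in livers 2 and 3, because 1 channel was not well above background. At chr5:138746934-138957531, 6 probes over Stag3 (a cohesin subunit of meiosis) and Zfp157 (a zinc finger protein) averaged -1.07, 0.41 and -1.09, with liver 2 on the other side of 0. The tissue channel was not well above background at 2 probes in liver 1 and 1 in liver 3, and with probes well above background only the means of these livers turned to 0.01 and 0.04. At chr12:105178127-105236491, over Serpina11 and Serpina9 (members of the serine protease inhibitor cluster), the means were 0.77, -0.75 and -0.71. The chr12 probe printed above had 3.04, -3.32 and -2.99 there, and without it the means came to 0.20, -0.12 and -0.14.

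3 places were past 0.3 in 1 direction in all 3 livers by their mean, though none was a focal region in liver 1. The place at chr11:116555341-116635308 over St6galnac2 and St6galnac1, both sialyltransferases, was at 0.58, 1.42 and 1.36, and at 0.49, 1.17 and 1.11 without its furthest probe. The place at chr11:115837387-115887503 over Itgb4 (integrin beta 4 of hemidesmosomes) and H3f3b (a replacement histone H3) was at -0.33, -0.49 and -0.51, and without the Itgb4 probe its means came to 0.09, -0.03 and -0.02. The place at chr9:104233968-104879861 over Acpp and Cpne4 was at -0.35, -0.39 and -0.36, and at -0.21, -0.23 and -0.19 without its furthest probe. All 8 tissues had the same sign at each of these 3 places.

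Among the 6 regions of largest shift in each liver, further genes were named by position. In liver 1 these were Cenpq (a centromere protein) and Mut (methylmalonyl-CoA mutase) on Chr17 at -0.88, and Iqgap2 (a scaffold protein of the liver) on Chr13 at -0.77. Liver 3 had the same places at -0.67 and -0.79, and liver 2 had 0.01 and -0.03. In liver 2 they were 5 probes on Chr12 from chr12:115837734 at -1.08, Gpr176, Eif2ak4 (the amino acid sensor kinase GCN2) and Srp14 on Chr2 at -1.05, and Gchfr, Dnajc17 and Ppp1r14d on Chr2 at -1.01. Ccne1 (cyclin E1) on Chr7 at -0.91 and Ugt1a10 (a glucuronosyltransferase) on Chr1 at -0.79 completed that liver's 6. In liver 3 they included Mef2c (a transcription factor of muscle and neurons) on Chr13 at -1.04 (0.02 with probes well above background only), Dppa1 on Chr11 at -0.99 and 5 probes without a gene name at chr17:20196706-20320370 at -1.09. Ccne1 was at -0.04 in liver 1 and -0.28 in liver 3, and its region rested on 1 probe past 1.

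The HCC arrays played no part in finding these regions and were used to ask whether the same places were shifted in other DNA of the same mouse. Of the 27 regions of liver 1, 25 lay past 0.3 in the same direction in HCC 1 and 25 in HCC 2. In the HCC of the other mice the counts were 1, 9 and 9. Of the 63 regions of liver 2, 46 did so in HCC 3 of the same mouse, and 5, 9, 23 and 26 in the HCC of other mice. Of the 97 regions of liver 3, 61 and 81 did so in its HCC 4 and HCC 5, and 15, 25 and 32 in the others. No region of a liver was past 0.3 in the opposite direction in an HCC of its own mouse, while up to 15 were in an HCC of another mouse. The mouse of liver 1 had a male reference and those of livers 2 and 3 a female one. Between liver 1 and the others, DNA that differs in the mouse and DNA that differs in the reference cannot be told apart. The sex of the reference did not differ between the mice of livers 2 and 3. At Slc25a37 to Loxl2 on Chr14, liver 2 and HCC 3 were at 0.52 and 0.65. Liver 3, HCC 4 and HCC 5 were at 0.01, -0.06 and 0.03 there. The source of such splits was not tested.

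The values in the tumour were close to those in the liver. The median ratio of HCC over liver was 0.951 and 0.956 for HCC 1 and HCC 2, 0.865 for HCC 3, and 0.851 and 0.966 for HCC 4 and HCC 5. Both dye orientations of a liver were past 0.3 in the same direction in 25 of 27, 47 of 63 and 74 of 97 regions. Both arrays had been averaged to find the regions, so these counts are not independent of their choice.

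**Figure D4:**
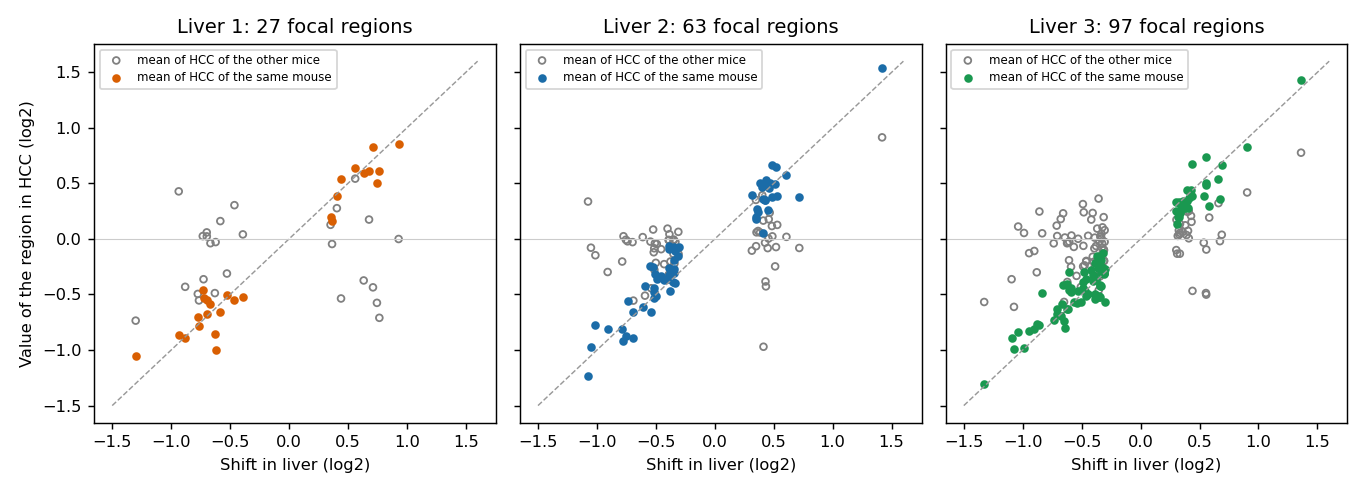
Shift of each focal region in the liver it was found in (x axis, log2) against its mean value in the HCC of the same mouse (filled) and of the other mice (open). The dashed line marks equal values. In HCC of the same mouse 25 and 25 of 27, 46 of 63, and 61 and 81 of 97 regions lay past 0.3 in the direction of the liver.

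Single probes whose 2 neighbours on each side were quiet were counted too. A probe was called isolated when it lay at least 0.7 from the chromosome median and those neighbours within 0.3. There were 67 such probes above and 223 below in liver 1, 47 and 93 in liver 2, and 51 and 121 in liver 3. Of the probes below, 35.4% were also below in the HCC of the mouse in liver 1, 81.7% in liver 2 and 94.2% in liver 3. Of the probes above, the shares were 53.7%, 87.2% and 92.2%. The shares were lowest in the noisiest liver, and what noise contributed to them was not tested.

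The engineered genes were each read by 1 probe. The Trp53 probe was at -0.07 in liver 1, -0.88 in liver 2 and -0.72 in liver 3. The f/f livers were both lower than the f/+ liver, whose arrays gave 0.12 forward and -0.25 in the dye swap, while those of liver 2 gave -0.90 and -0.86 and those of liver 3 -0.75 and -0.69. The neighbouring probes, 3.56 kb to one side and 9.89 kb to the other, lay within 0.1 of 0 in all 3 livers. Against the reference the mean was -0.56 ± 0.43 (SD, n = 3; limma adjusted p = 0.507), and without liver 1 it was -0.80 and passed (limma adjusted p = 0.00558). The difference f/f minus f/+ was -0.73 (SE 0.099, limma adjusted p = 0.0245). That p sets 1 f/+ liver against 2 and rests on the spread of the f/f livers alone, so it is no test of the genotype. The difference missed the threshold on the dye-swap arrays alone (-0.52, limma adjusted p = 0.0906). Recombination as the source of the difference was not tested. Bulk DNA could in any case not tell a smaller share of recombined cells from fewer recombined alleles per cell.

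The Mad2l1 probe did not lie below the reference in any liver. It was at 0.01 in liver 1, 0.36 in liver 2 and 0.69 in liver 3, a mean of 0.35 ± 0.34 (SD, n = 3; limma adjusted p = 0.507). Arrays of 1 liver gave similar values, 0.02 and 0.002 in liver 1, 0.44 and 0.28 in liver 2, and 0.71 and 0.67 in liver 3. The spread between livers was larger than that between arrays. The nearest probes, 26.9 kb below and 12.3 kb above, gave -0.25, -0.21 and -0.11 on one side and -0.62, -0.13 and 0.18 on the other. The second of these, named V1rc15 (a vomeronasal receptor), had the same order over the livers as the Mad2l1 probe, though the arrays of liver 1 gave it -1.91 forward and 0.67 in the dye swap. The study describes 1 array probe within the deleted fragment of each gene, without naming it, in its account of the T cell tumours. The probes here could not be placed against the loxP sites. The study reports efficient Mad2l1 excision in liver by PCR, and array values in HCC mostly between those of wild-type cells and T cell tumours. In HCC 1 to 5 the Mad2l1 probe was at -1.22, -0.71, 0.08, 0.53 and 0.59. The Trp53 probe was at -1.06, -1.14, -0.19, -2.07 and -2.03 in them.

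**Figure D5:**
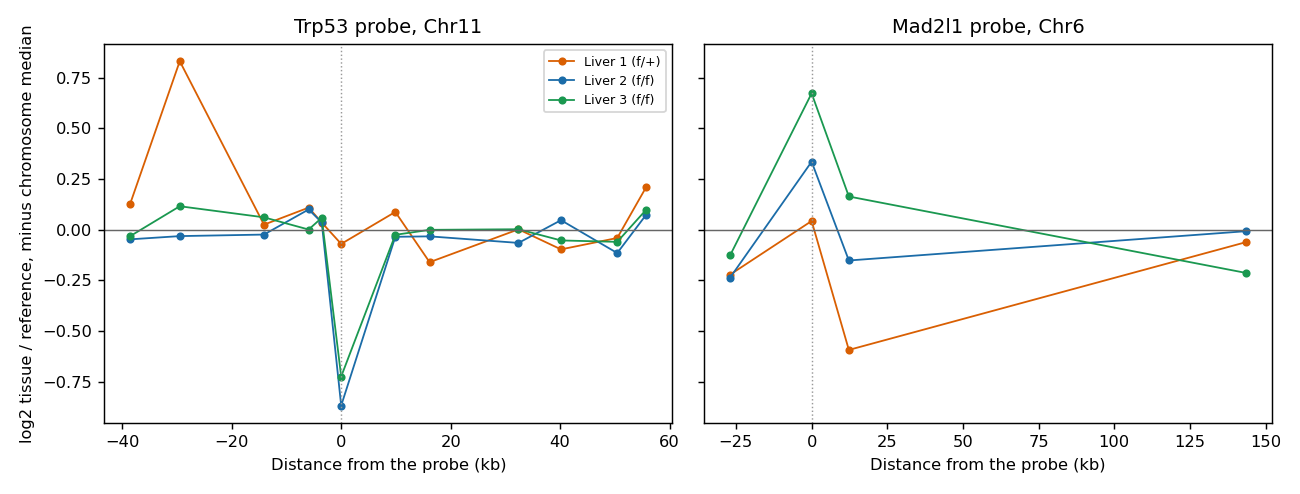
Probe values (log2 tissue over reference minus the chromosome median) against distance in kb from the Trp53 probe and from the Mad2l1 probe, in the 3 unaffected livers. At distance 0 the Trp53 probe is near 0 in liver 1 and at -0.87 and -0.72 in livers 2 and 3, and the Mad2l1 probe is highest in liver 3.

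Across single probes, 0 of 40726 passed limma against the reference at an adjusted p of 0.05 (0.0% called), and 3922 had an unadjusted p under 0.05. Without liver 1, the noisiest, 232 passed, 87 above and 145 below, and without liver 2 or liver 3 it was 2 and 0. Of the probes, 69 were past 0.3 from their chromosome in 1 direction in all 3 livers. The probe with the smallest p was that of Itgb4, at -2.42, -2.79 and -2.97 (limma adjusted p = 0.0751). All 5 HCC had it between -3.16 and -2.32. Next came an unnamed probe at chr9:104418339-104418398, at -0.94, -1.05 and -1.07 (limma adjusted p = 0.083), and that of Cyb561d2, a cytochrome b561 family member, at -1.46, -1.12 and -1.26 (limma adjusted p = 0.153). These probes were picked by a p that is small where the livers lie close together and far from 0, so neither trait is a finding. The arrays of liver 1 gave the Itgb4 probe -2.97 forward and -1.86 in the dye swap.

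To ask how the Trp53 f/f livers differed from the f/+ liver, livers 2 and 3 were set against liver 1. This fit has 1 f/+ liver, which is assumed to vary like the others although its probe noise was 0.175 against 0.0909 and 0.0835. Its p-values rest on the spread of livers 2 and 3 alone, so its calls describe where liver 1 differed from them and are no test of the genotype. Chr19 was 0.119 higher in the f/f livers (SE 0.021, limma adjusted p = 0.0343), the 1 autosome of 19 past the threshold (5.26% called). Its level was -0.132 in the f/+ liver and -0.027 and -0.0002 in the f/f livers. On the dye-swap arrays alone the difference was 0.073 (limma adjusted p = 0.152), and by the median of its probes 0.087 (limma adjusted p = 0.0867). Chr4 was 0.115 higher and Chr6 0.069 higher in the f/f livers (limma adjusted p = 0.0692 each).

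Of 40726 probes, 1262 were past the threshold in this fit (3.1% called). Of these, 851 were higher in the f/f livers (2.09% of all probes) and 411 lower (1.01%). The forward arrays alone gave 3948 higher and 925 lower, and the dye-swap arrays alone 180 higher and 706 lower, so that the balance of directions turned with the dye. In 1096 of the 1262 (86.8%) the f/+ liver was the one further from 0. The difference was past 0.3 in both orientations at 576 probes, 289 higher and 287 lower, in the forward arrays only at 586, of which 551 were higher, and in the dye swap only at 100.

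The HCC of the same mice, arrays that this comparison did not use, differed in the same way at the probes seen in both orientations. HCC of f/f mice minus HCC of the f/+ mouse was past 0.3 in the same direction at 372 of those 576 (64.6%), at 55 of the 586 forward-only probes (9.39%) and at 20 of the 100 dye-swap-only probes. Over all autosomal probes 4.99% were past 0.3 in the HCC contrast above and 4.92% below. The called probes lay in focal regions more often than others did, 10.2% of them against 2.15% of all autosomal probes. Calls and regions were both chosen by large values in the same livers, so this overlap was built in and is no support. The called share of an autosome's probes was highest on Chr19 (5.79%) and lowest on Chr10 (1.43%).

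Among the 8 probes with the smallest adjusted p, some had opposite signs in the f/+ and f/f livers. AK034276 on Chr2 was at 2.08 in liver 1 and -1.56 and -1.59 in livers 2 and 3 (limma adjusted p = 0.000313), and the chr12 probe printed above was at 3.04, -3.32 and -2.99. Nip7, a ribosome biogenesis factor on Chr8, was at 0.68, -2.35 and -2.23, and Prrx1, a homeobox factor of mesenchyme on Chr1, at 0.74, -1.74 and -1.81. Each of these kept its sign in every HCC of the same mouse. Kif1b, a kinesin motor gene on Chr4, was low in liver 1 and near 0 in the others, at -2.69, -0.15 and -0.02. At 2 of the 8 the arrays of liver 1 differed widely. The probe 2610101N10Rik on Chr9 gave 4.56 forward and -0.07 in the dye swap of liver 1, and -0.09 and -0.18 in livers 2 and 3. Slc7a2, a cationic amino acid transporter, was at 2.72 in liver 1, from 4.82 in the forward and 0.61 in the dye-swap array, and at 0.31 and 0.20 in the HCC of that mouse.

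Known pathways were read with lists of genes. Of the spindle checkpoint genes, 16 of 18 had probes, 29 in all, and 0 of these passed either comparison or lay in a focal region. Of the p53 pathway, 19 of 20 genes had 34 probes, and the Trp53 probe was the only one called, lower in the f/f livers. Of the liver tumour genes, 25 of 29 had 59 probes, and 2 of these (3.39%) were called. Of the hepatocyte genes, 29 of 30 had 47 probes, and 1 (2.13%) was called. These shares stand beside 3.1% of all probes.

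Arid2 and Slc10a1 were called members of these lists, both higher in the f/f livers and far below 0 in the forward array of liver 1 only. Arid2, a subunit of the SWI/SNF chromatin remodeller, was at -0.99 forward and 0.11 in the dye swap of liver 1. Slc10a1, the bile acid uptake carrier of hepatocytes, was at -1.28 and 0.19. For neither did both orientations of liver 1 lie below 0.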

How the data were processed

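Per the labels, genomic DNA of tissue and of normal liver was labelled with Cy5 and Cy3 and hybridised to Agilent arrays, with a dye swap. The intensity values in the deposited scanner files were made by the authors with Agilent Feature Extraction 9.1.3.1 (background subtraction, detrending and a dye normalisation given only as a code). On all arrays the log10 ratios that the authors deposited in the series matrix matched those of the scanner files once the sign of dye swaps was turned, and they were not used further. Median signal over background was 3.72 to 7.95 over channels and arrays, and 0.191% to 2.31% of spots were not well above background. The number of livers limits the precision.

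Log2 of tissue over reference was computed from processed signals without control and outlier spots, centred on the autosomal median, with both orientations averaged to 1 replicate. Livers were compared with 0, and f/f with f/+ livers, by limma 3.58.1 in R 4.3.3 (two-sided, Benjamini-Hochberg over 19 autosomes or 40726 probes). Segments came from optimal partitioning whose penalty was the product of 3, the squared probe noise and the natural log of the autosomal probe number. A fold for a probe with a dim channel is a bound against the lowest signal well above background. The spread was compared by an exact permutation test, with the mouse as a block in an alternative, since tissues of 1 number come from the same animal. P-values measure the spread between these livers. Named genes were the engineered genes, the 6 regions of largest shift per liver, regions in all livers, the top probes and called list members, with others named after their values were seen. Some named items are not reported here. The members and lists were chosen with earlier results of these data known. Steps were tested on simulated data. The files name no genome build, and the array design gives the gene names. Other tools were matplotlib 3.10.9, numba 0.67.0, scipy 1.17.1, pandas 2.3.3 and numpy 2.4.6 under Python 3.11.15.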

Additional observations from a re-analysis of the deposited data

Results flagged for a closer look

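5 results differed between the Trp53 f/f livers and the f/+ liver. The level of Chr19 was 0.119 higher in the f/f livers, and the Trp53 probe was 0.73 lower (a difference of -0.73), each past a limma adjusted p of 0.05 that rests on the spread of the 2 f/f livers alone. At 3 places the f/+ liver lay past 0.3 on one side and both f/f livers past 0.3 on the other, and this difference was not tested: it was -1.4996 at chr12:105178127, -1.20 at chr12:115151862 and 1.40 at chr19:16944661. At chr12:115151862, 8 probes were at 0.64 in liver 1, -0.82 in liver 2 and -0.31 in liver 3. Age, sex, scan day, scan protocol and the sex of the reference differ in the same way as the genotype.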

How the results depend on the processing

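Autosomes called against the reference rose from 0 to 3 with normexp background correction (Chr4, Chr18 and Chr19), 3 with dye-swap arrays only (Chr1, Chr4 and Chr18) and 2 with probes well above background only (Chr4 and Chr18). Probes called were 0 to 232 when a liver was left out. In f/f minus f/+, the 1 autosome became 2 with centring on the mode or normexp, 4 with centring on all probes, 5 with forward arrays, and 0 with dye-swap arrays, with probes well above background or with the median of an autosome. Without liver 2 or liver 3 no test is left, and Chr19 differed by 0.132 and 0.105. The 1262 probes became 2610 with normexp and 4873 with forward arrays. The Trp53 probe lost its call in that comparison with dye-swap arrays only (-0.52), and the Mad2l1 probe was called with normexp (0.57, limma adjusted p = 0.0216).

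The difference in spread was 0.254 with dye-swap arrays (exact permutation p = 0.0571). That setting held 4 HCC, since HCC 3 had no dye-swap array, and its p was the smallest it can give. The difference was 0.219 to 0.254 when a liver or an HCC was left out (exact permutation p = 0.0571 to 0.0952, the smallest these designs can give). With the replicate block by mouse it was 0.227 (exact p = 0.25, likewise the smallest).

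Focal regions of liver 1 went from 27 to 11 with normexp, 14 with forward arrays, 4 with dye-swap arrays, 11 with probes well above background, 47 and 10 with penalty factors of 2 and 5, and 13 with at least 10 probes. Those of liver 2 went from 63 to 30 with normexp, 23 with forward arrays, 98 and 23 with at least 3 and 10 probes, 26 with a shift of 0.5 and 18.15 with noise equalised. Those of liver 3 went from 97 to 55 with normexp, 47 with forward arrays, 41 with dye-swap arrays, 59 with probes well above background, 63 with a penalty factor of 5, 152 and 38 with at least 3 and 10 probes, 39 with a shift of 0.5 and 30.25 with noise equalised.

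6 of 196 region values turned sign, all with probes well above background only, which removes the dim probes that carried them: the Chr5 region from 138840892 to 0.0103 in liver 1 and 0.0397 in liver 3, the wider Chr5 place from 138746934 to the same 0.0103 and 0.0397, the Mef2c region on Chr13 to 0.0249 in liver 3, and the Il1a to Sirpa place on Chr2 to -0.0198 in liver 1. Of 456 autosome levels per liver under these settings, 381 moved by less than the SD of that autosome's level between the livers. The other 75 moved by more, and none of the 456 was further than 0.226 from 0. The GC correction and the f/f minus f/+ settings were chosen after seeing the data.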

Other observations

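Gene families of clustered copies differed in how often they lay in focal regions, with 2.15% of all autosomal probes for reference. Of the Klr receptors of natural killer cells, 6 of 27 probes (22.2%) lay in a focal region of at least 1 liver, and of the MHC genes, which present antigens, 5 of 21 (23.8%). Of the defensins it was 3 of 34 (8.82%), of the vomeronasal receptors 4 of 65 (6.15%), of the olfactory receptors 10 of 666 (1.5%) and of the Zfp zinc finger genes 11 of 434 (2.53%). For the cytochrome P450 genes it was 0 of 110, and for the keratins 0 of 73. Probes of 1 cluster are neighbours and were counted as they lay. All 6 Klr probes lay in 1 region, chr6:129690345-130239095, found in liver 3 only. The 3 defensin probes lay in 1 region, chr8:19376328-22893043, found in liver 2 only. A high share can thus rest on 1 region of 1 liver and does not describe the family. The defensin list also held Def6, which is not a defensin. The keratin list also held keratin-associated proteins such as Krtap3-3 and Krtap15, so these are counts of the lists.

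2 members of these families were past 0.3 in 1 direction in all 3 livers. The vomeronasal receptor V1rf2 on Chr17 was at 0.48, 0.90 and 1.44 in livers 1, 2 and 3 and between 0.35 and 1.21 in the 5 HCC. The olfactory receptor Olfr464 on Chr11 was at -0.52, -0.43 and -0.35, but the arrays of liver 1 gave -1.14 forward and 0.10 in the dye swap.

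In f/f minus f/+ livers, the difference at some members of these lists rested on the forward array of liver 1. It was 1.19 at Zfp35, where liver 1 gave -2.68 forward and 0.39 in the dye swap. At Olfr592 it was 0.70, with -1.71 and 0.35, and at the ribosomal protein gene Rpl23a 0.55, with -1.38 and 0.22. At others both arrays of liver 1 lay on 1 side, such as Zfp61 (difference -1.27, with 1.23 and 0.89). How many members were of each kind was not counted. The Klr, MHC, glucuronosyltransferase, sulfotransferase and collagen lists held 27, 21, 21, 20 and 95 probes. At these sizes a count of calls would be no result about a family.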
